A study of Homo sapiens with 16 samples.

Results

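MM1S, a human multiple myeloma line that responds to glucocorticoids, received 0.1 μM TAK-981 together with 1 μM dexamethasone (Dex) for 48 h, a treatment called combo here, and its RNA was set against that of vehicle-treated MM1S cells. The comparison rests on 4 of the 16 RNA-seq libraries of the experiment, 2 of combo and 2 of vehicle, taken by cell line and treatment as labelled and not by any measured value, and it covers all genes. Of the other 12 libraries, 4 hold MM1S cells given 0.1 μM TAK-981 alone or 1 μM Dex alone for the same 48 h, and 8 hold MM1R, the glucocorticoid-resistant counterpart of MM1S, under the same 4 treatments, with 2 libraries in each group. The composition of the vehicle and the genetic makeup of the lines beyond their response to glucocorticoids are not given in the sources used here. The labels call the treatments duplicates without saying whether these were separate cultures, so the p-values below measure the spread between libraries, which may be technical. Each condition rests on 1 cell line per state of resistance, and in such bulk RNA fewer cells of a kind and less RNA per cell cannot be told apart.

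Dex is a synthetic glucocorticoid. It binds the glucocorticoid receptor, encoded by NR3C1, which enters the nucleus, binds DNA and raises the transcription of target genes such as FKBP5 and TSC22D3, while it holds back many inflammatory genes. Glucocorticoids kill lymphoid cells and are a backbone of myeloma therapy. TAK-981 blocks the enzyme that activates SUMO, a small protein that is attached to other proteins, transcription factors among them, and whose attachment is known to restrain type I interferon expression. Interferon-stimulated genes, which encode antiviral proteins, are switched on through factors such as STAT2 and IRF9. Genes for DNA replication are under the control of E2F factors and are transcribed as cells enter S phase.

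The 4 libraries held 15707587 to 20644510 counts, with levels given as CPM, the counts per 1e+06 counts of a library whose size was scaled by the trimmed mean of M values. Along the first principal component of the 8 MM1S libraries, which carried 53.1% of the variance, the combo libraries lay at 54.4 and 52 and the vehicle libraries at -53.8 and -51.9, with the single-drug libraries between -14.1 and 13. The libraries of a group differed by a median of 0.0881 on the log2 scale for vehicle and 0.116 for combo. The long nuclear RNA MALAT1 took 2.85% to 3.01% of the counts in vehicle and 6.03% to 6.11% in combo. Plasma cell markers were present, with 18 of 20 tested. Of the 16 T and NK cell markers, CD3D, CD3G, CD5, CD8B and NKG7 had no count in any of the 4 libraries, and the list summed to 29.4 to 31.9 CPM without that scaling in vehicle and 18.4 to 20.4 in combo. The 12 myeloid markers summed to 19.9 to 21.5 and 36.5 to 38.9, with S100A8, FCN1 and ELANE at 0. The 14 stromal and epithelial markers summed to 10.7 to 13.9 and 3.5 to 4.83, with COL1A2, COL3A1, DCN, LUM, KRT19 and CDH5 at 0. The part of these small shifts in the results below was not tested.

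Combo changed most of the measurable transcriptome of MM1S. The quasi-likelihood F test of edgeR covered 14215 genes, of which 8573 passed a Benjamini-Hochberg adjusted p under 0.05. Of all genes tested, 30.8% were called higher (4374 genes) and 29.5% lower (4199 genes). With RLE scaling, an alternative to the scaling used here, 4254 were higher and 4308 lower, so neither direction clearly led. At least 2-fold changes made up 8.54% of tested genes in the upward direction (1214) and 9.11% in the downward direction (1295). At least 4-fold, falls led, with 301 genes higher and 461 lower. Among changes of at least 2-fold, only the most extreme were more often rises. At least 8-fold higher were 138 genes and at least 8-fold lower 112, and at least 16-fold there were 78 higher and 20 lower. Genes near 0 in vehicle, whose fold is uncertain, were included in these counts. The median log2 fold change of all genes was 0.037, with a median standard error of 0.106. The calls also leaned with expression level. When genes were split by mean level into 4 equal groups, in the lowest group 1081 were higher and 513 lower, and in the highest group 1031 were higher and 1422 lower.

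**Figure D1:**
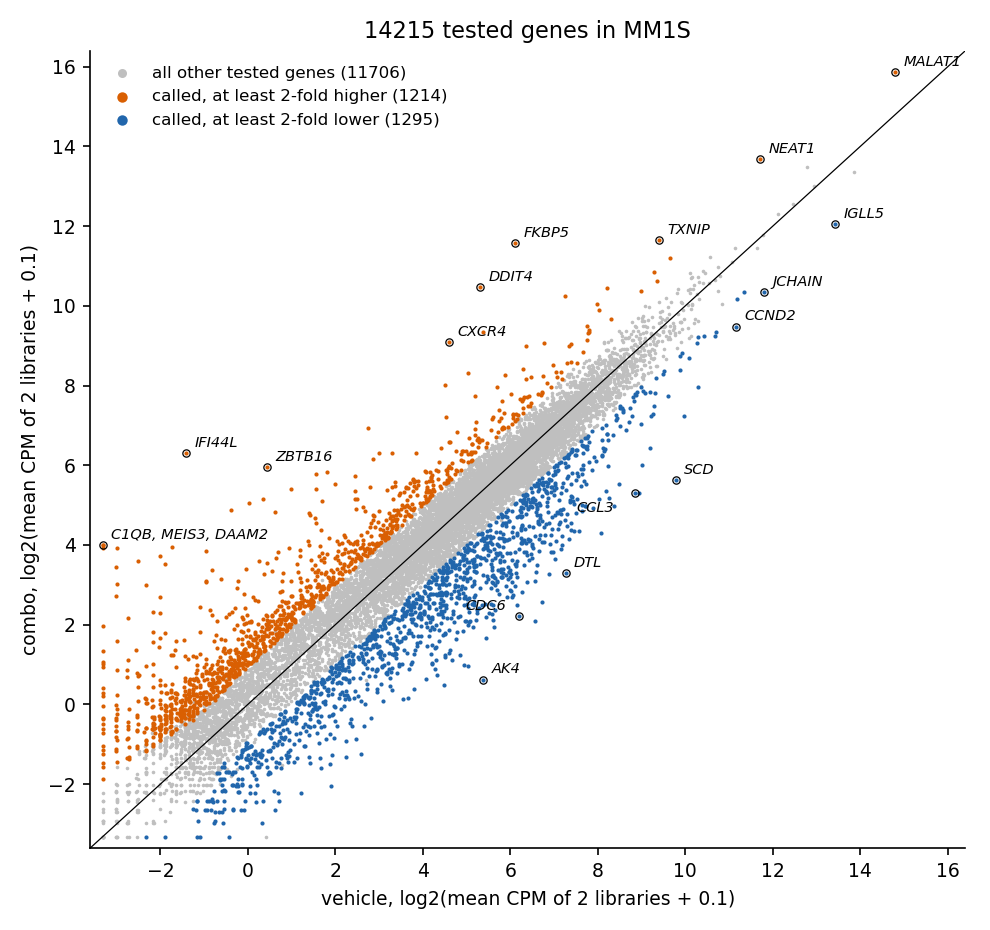
Mean CPM of the 2 combo libraries (vertical) against that of the 2 vehicle libraries (horizontal) for 14215 tested genes, each as log2 after adding 0.1; orange and blue points are genes called at least 2-fold higher (1214) or lower (1295), and the line marks equal levels. C1QB, MEIS3 and DAAM2 lie at the left edge, with no count in either vehicle library.

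The 10 rises with the largest fitted fold change fell into glucocorticoid targets, interferon-stimulated genes and a few genes of other kinds. They were taken from genes with a mean log2 CPM of at least 3 over all 16 libraries. Genes near 0 in vehicle, MEIS3 among them, met that minimum only through groups where they were higher. The choice therefore shapes the make-up of the 10. The choice also required a call and both combo libraries above both vehicle libraries, so that separation is not a result. FKBP5 (chr6:35541362-35696397, minus strand, in hg19, the build of the count table), which encodes a co-chaperone of the glucocorticoid receptor, was at 68.6 and 69 CPM in the vehicle libraries and 3025 and 3107 CPM in the combo libraries. Its log2 fold change was 5.48 (standard error 0.075, adjusted p = 1.02e-19), a 44.6-fold higher mean. ZBTB16 (chr11:113930431-114121397), a zinc finger repressor and known glucocorticoid target, was at 0.987 and 1.54 CPM in vehicle and 60.2 and 62.7 CPM in combo. DDIT4 (chr10:74033677-74035797), an inhibitor of the growth kinase mTORC1, was at 40.2 and 38.6 CPM in vehicle and 1380.3 and 1443 CPM in combo. The log2 fold changes of these 3 genes were 5.48, 5.61 and 5.16. Dex alone brought FKBP5 to 1725 and 1602 CPM, ZBTB16 to 38.7 and 37.4 CPM and DDIT4 to 721 and 837 CPM, below both combo libraries in each case. TAK-981 alone left FKBP5 at 40.3 and 43.7 CPM, under the vehicle level.

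Of the same 10, IFI44L, RSAD2, TRIM22 and DDX60 are interferon-stimulated genes. IFI44L (chr1:79086088-79111830) was at 0.141 and 0.41 CPM in vehicle and 84 and 74.1 CPM in combo, a log2 fold change of 8.16 (standard error 0.26, adjusted p = 1.75e-13). RSAD2 (chr2:7017796-7038363), whose product viperin blocks viral replication, was at 0.094 and 0.308 CPM in vehicle and 16.2 and 14.6 CPM in combo. TRIM22, an antiviral ubiquitin ligase, was at 0.752 and 1.08 CPM and 34.8 and 31.8 CPM, and DDX60, a helicase of the RNA-sensing pathway, at 1.17 and 1.18 CPM and 38.2 and 32.2 CPM. These genes were hardly detected without drug. TAK-981 alone took IFI44L to 40.6 and 30.5 CPM and RSAD2 to 13.6 and 12.6 CPM, while Dex alone left them at 0.622 and 0.958 CPM and 0.311 and 0.454 CPM. Combo was above TAK-981 for IFI44L by 1.15 (standard error 0.13, adjusted p = 3.54e-06), for TRIM22 by 0.93 (standard error 0.13, adjusted p = 1.57e-05) and for DDX60 by 0.55 (standard error 0.13, adjusted p = 0.00357) on the log2 scale. For RSAD2 the difference was 0.23 (standard error 0.13, adjusted p = 0.184). All 10 genes were picked by their rise in the same combo libraries, which by itself favours combo lying above the single drugs.

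The remaining 3 of the 10 rose after TAK-981 alone to higher levels than after combo. MEIS3 (chr19:47906375-47922785, minus strand), a homeobox gene, had 0 and 0 counts in vehicle and 259 and 283 counts in combo. With 3 counts per library as the limit for the vehicle group, combo was at least 107-fold higher. MEIS3 was at 36.4 and 38.8 CPM after TAK-981 alone and at 16 and 15.6 CPM after combo, a log2 difference of -1.25 (standard error 0.093, adjusted p = 3.58e-08). GLB1L3, a gene of the beta-galactosidase family, was at 0.517 and 0.82 CPM in vehicle, 82.9 and 76.7 CPM after TAK-981 and 30.8 and 27.7 CPM after combo. POU3F1, a POU-domain transcription factor of neural and Schwann cells, was at 0.47 and 0.359 CPM, 26.2 and 27.8 CPM and 12.8 and 15.9 CPM in the same order. For both the combo libraries lay above vehicle and below TAK-981, by log2 differences from TAK-981 of -1.45 (adjusted p = 2.99e-10) and -0.90 (adjusted p = 1.05e-06).

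**Figure D2:**
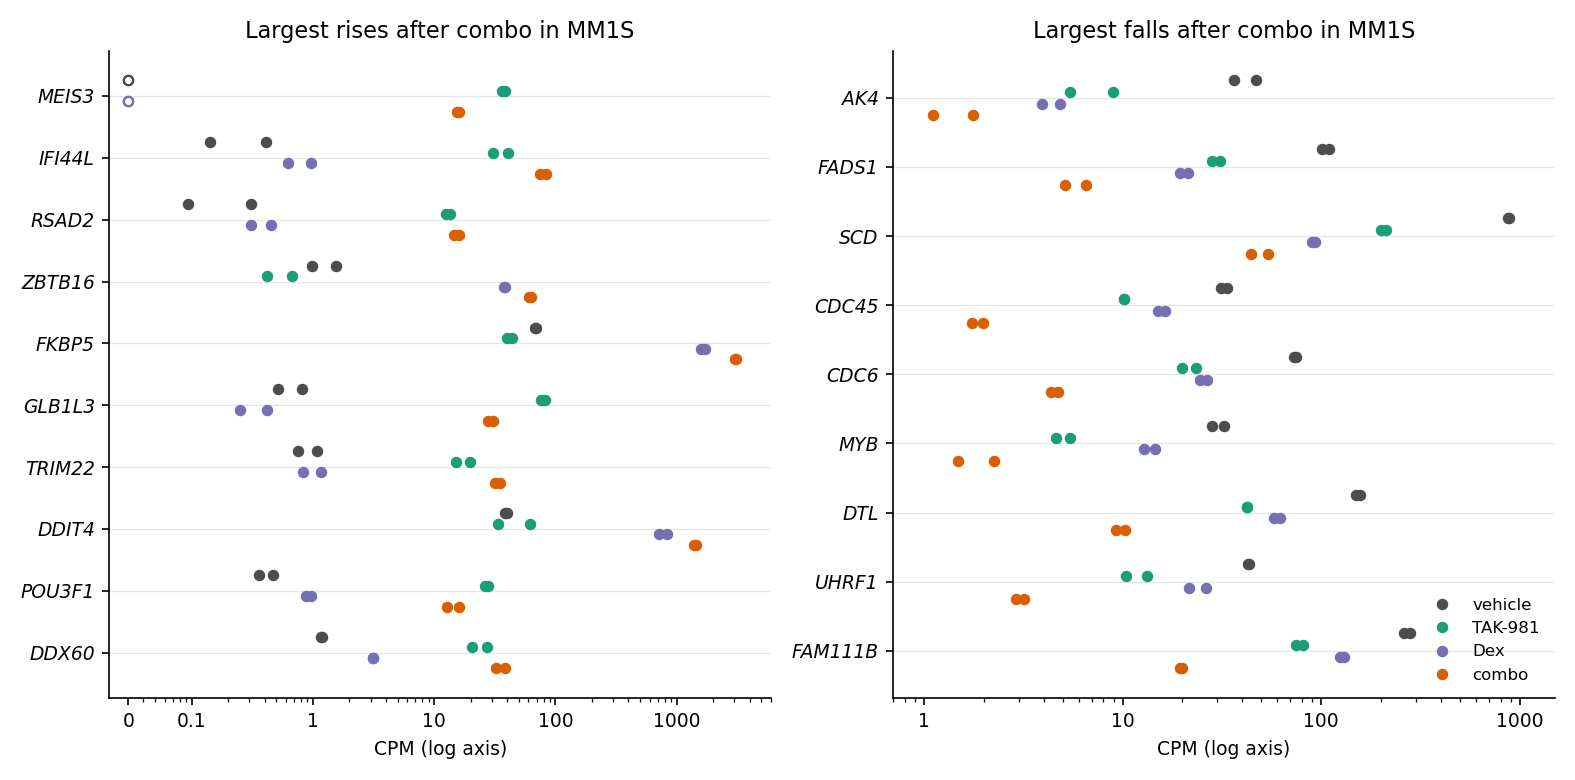
CPM on a log axis in each of the 8 MM1S libraries for the 10 genes with the largest rises (left) and 9 of those with the largest falls (right) after combo; each point is 1 library, 2 per treatment, and open points at 0 are libraries without a count. For FKBP5, ZBTB16 and DDIT4 the Dex libraries lie nearest to combo and below it. For the interferon-stimulated genes the TAK-981 libraries lie nearest, and for MEIS3 they lie above combo. For all 9 falls combo lies below both single drugs.

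The largest falls, taken by the same rule, of which 9 are given, were genes of lipid synthesis and of DNA replication, with MYB and AK4. SCD (chr10:102106772-102124588), the desaturase that makes monounsaturated fatty acids, was at 876 and 882 CPM in vehicle and 44.3 and 53.7 CPM in combo, and fell by 4.16 on the log2 scale (standard error 0.078, adjusted p = 7.38e-18). FADS1, a desaturase of polyunsaturated fatty acids, was at 109.9 and 101 CPM and 5.14 and 6.54 CPM. Both lost more than 9 in 10 of their vehicle level, 17.9-fold and 18-fold. CDC6, which loads the replicative helicase onto origins, was at 73.2 and 74.4 CPM in vehicle and 4.71 and 4.34 CPM in combo. CDC45, a part of that helicase, was at 31.2 and 33.7 CPM and 1.73 and 1.98 CPM. DTL, which marks the licensing factor CDT1 for destruction, was at 157 and 149.9 CPM and 9.29 and 10.2 CPM. These replication genes fell by 4.03, 4.12 and 3.97 on the log2 scale. UHRF1, which keeps DNA methylation through replication, fell by 3.82, and FAM111B, a protease gene of the cell cycle, by 3.79. MYB, a transcription factor of haematopoietic progenitors, was at 32.6 and 28.2 CPM in vehicle and 1.49 and 2.25 CPM in combo. AK4, a mitochondrial adenylate kinase, went from 46.8 and 36.4 CPM to 1.11 and 1.76 CPM, the lowest ratio of the 9 at a log2 fold change of -4.83. In all 9 both combo libraries lay below both libraries of TAK-981 and of Dex, and the difference passed the test against each single drug (log2 difference from TAK-981 between -2.44 and -1.4, from Dex between -3.07 and -0.89). These genes were picked by their fall in the same combo libraries, which by itself favours combo lying lowest.

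Some genes were at or near 0 in vehicle and appeared after combo. Of 221 tested genes with at most 3 counts in each vehicle library, 116 were called higher in combo. A gene this low in vehicle entered the test only through groups where it was higher, so this share is largely set by the filter and is given as a description. By the mean CPM reached, C1QB, MEIS3, IL7R, DAAM2 and CXCL13 led. C1QB, a chain of complement C1q, had 0 and 0 counts in vehicle and 243 and 306 in combo, at least 108-fold higher. DAAM2, a formin of Wnt signalling and known glucocorticoid target, had 0 and 0 and 262 and 250, at least 102-fold higher. IL7R, the interleukin-7 receptor chain, had 0 and 1 counts in vehicle and was at 14.6 and 15.6 CPM in combo. CXCL13, a chemokine that attracts B cells, had 3 and 3 counts in vehicle and was at 14.5 and 11.5 CPM in combo. C1QB, DAAM2 and CXCL13 were also on after Dex alone, at 9.12 and 12.2, 22.2 and 20.3 and 8.97 and 9.18 CPM, and IL7R at 5.75 and 5.04 CPM stood lower there than in combo by a log2 difference of 1.48 (standard error 0.17, adjusted p = 1.48e-06). In the other direction, 172 tested genes had at most 3 counts in each combo library, and 55 of them were called lower, a share that the filter shapes in the same way. The 5 with the highest vehicle level were NME8, RTL9, LPL, DBNDD1 and TNFAIP8L3, between 1.41 and 2.23 CPM in vehicle. LPL, the lipoprotein lipase, had 31 and 31 counts in vehicle and 1 and 3 in combo.

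The largest gains and losses in CPM were in abundant RNAs, and CPM here is not divided by gene length, so long genes weigh more. The largest gains were in MALAT1, NEAT1, RPPH1, FKBP5 and TXNIP. MALAT1 was at 29208 and 27794 CPM in vehicle and 58704 and 59825 CPM in combo. NEAT1, the scaffold RNA of paraspeckles, was at 3339 and 3325 CPM in vehicle and 14992 and 11427 CPM in combo, with a wide gap between its combo libraries and a log2 fold change of 1.99 (standard error 0.28, adjusted p = 0.000237). TXNIP, which restrains glucose uptake and thioredoxin, was at 726 and 615 CPM in vehicle and 3181 and 3219.8 CPM in combo. RPPH1, the RNA of RNase P, is a short gene that lies against another gene, so its counts are uncertain. The largest losses were in IGLL5, ITGB7, JCHAIN, CCND2 and ACTB. IGLL5 overlaps the immunoglobulin lambda locus, whose transcripts its reads may come from, and went from 11115 and 10820.0 CPM to 4018 and 4416 CPM. JCHAIN, which joins secreted antibody chains, went from 3631 and 3499 CPM to 1387 and 1195 CPM, and CCND2, a D-type cyclin, from 2361 and 2236 CPM to 677 and 749.7 CPM. The adhesion receptor chain ITGB7 fell by 0.49 and the cytoskeletal ACTB by 1 on the log2 scale.

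Glucocorticoid-induced genes rose broadly after combo. Of 31 tested, 26 were called higher and 2 lower, against 30.8% and 29.5% of all genes, and their median log2 fold change was 2.19, beside 0.037 for all genes. TSC22D3 (GILZ), a mediator of the anti-inflammatory action of glucocorticoids, was at 38.3 and 44.4 CPM in vehicle and 632 and 662 CPM in combo, with a log2 fold change of 3.97 (standard error 0.095, adjusted p = 1.31e-16). CXCR4, the chemokine receptor that holds plasma cells in the marrow, was at 25 and 23 CPM in vehicle, 222 and 216 CPM after Dex and 535 and 551 CPM after combo. Combo thus lay above Dex for CXCR4 by 1.31 (standard error 0.063, adjusted p = 1.01e-11), and above the sum of the single-drug changes by 1.13 (adjusted p = 5.94e-07). Of the 31 genes of the list, 6 lay above that sum and 9 below it (19.4% and 29%, beside 5.47% and 9.48% of all genes). KLF9 rose by 2.49, RASD1 by 3.56 and BCL2L11, which encodes the death protein BIM, by 0.65 on the log2 scale. BCL2L11 was at 226 and 240.2 CPM in vehicle and 359 and 372 CPM in combo. The clock gene PER1 and the phosphatase gene DUSP1, which respond early to glucocorticoids, rose less, by 0.72 and 0.74. GPT2 fell from 26.6 and 29 CPM to 7.31 and 8.14 CPM, and CORO2A passed with a fall whose call was lost in DESeq2 and without vehicle replicate 2 or combo replicate 2 (adjusted p from 0.0525 to 0.172). The same list had a median of 1.25 after Dex alone and 0.40 after TAK-981 alone, both set against the same vehicle libraries. NR3C1 itself was at 283 and 277 CPM in vehicle and 286 and 278 CPM in combo, and the difference did not pass the test, with a log2 fold change of 0.01 (standard error 0.070, adjusted p = 0.911). Of its chaperones, HSP90AA1 fell by 0.81, HSP90AB1 by 0.64 and FKBP4 by 0.78.

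Interferon-stimulated genes rose as well. Of 59 tested, 51 were higher and 2 lower (86.4% and 3.39%, beside 30.8% and 29.5% of all genes), with a median of 1.41, and 34 rose at least 2-fold, which 8.54% of all genes did. MX1, an antiviral GTPase, was at 22.5 and 22.5 CPM in vehicle and 249.7 and 263 CPM in combo, with a log2 fold change of 3.51 (standard error 0.073, adjusted p = 3.16e-17). IFIT1, which binds foreign RNA, was at 3.1 and 2.56 CPM and 44 and 40.4 CPM, and XAF1, an antagonist of the death inhibitor XIAP, at 6.48 and 6.66 CPM and 126 and 120.3 CPM. ISG15 and IFI44 rose by 3.12 and 4.26. The list's members that fell were the chemokine CXCL10, from 4.32 and 3.95 CPM to 1.55 and 0.495 CPM, and the GTPase GBP2, from 9.73 and 9.23 CPM to 2.91 and 2.75 CPM. CXCL10 was at 6.9 and 5.25 CPM after TAK-981 alone and 0.518 and 0.706 CPM after Dex alone. The median of the list was 1.39 after TAK-981 alone and 0.028 after Dex alone. The median difference of combo from TAK-981 was -0.073. Of the list, 9 genes were higher in combo than in TAK-981 (14.5% of all genes were) and 13 lower (20.6% of all genes).

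The promoters of these genes are shown because the list shares a sequence that its choice did not use. The interferon element, searched as GAAANNGAAA on both strands with N as any base, was found in the RefSeq promoter window (250 bases before to 50 after a gene start, GRCh38.p14) of 33 of 45 interferon-stimulated genes that had a window, 73.3%. The share was 4.28% over 10518 tested genes with a window and 61.1% over the MHC class I list. Stretches of the promoters of IFI44L (chr1:78620254-78620414, plus strand), RSAD2 (chr2:6877602-6877671, plus strand) and DDX60 (chr4:168318766-168318870, minus strand), all upstream of the gene start and in GRCh38.p14, run 5′ to 3′ as follows, with the matches in capitals.
IFI44L: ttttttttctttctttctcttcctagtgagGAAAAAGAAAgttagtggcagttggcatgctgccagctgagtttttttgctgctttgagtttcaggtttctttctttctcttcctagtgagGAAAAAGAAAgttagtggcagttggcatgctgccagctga
RSAD2: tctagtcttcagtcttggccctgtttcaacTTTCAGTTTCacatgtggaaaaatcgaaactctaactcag
DDX60: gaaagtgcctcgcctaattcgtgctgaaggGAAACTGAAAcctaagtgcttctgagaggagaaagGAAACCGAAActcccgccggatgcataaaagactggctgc
The IFI44L matches begin 164 and 73 bases before the start, those of DDX60 88 and 53, and that of RSAD2, on the opposite strand, 145. A full glucocorticoid element, searched as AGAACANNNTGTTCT, was in none of the 10518 windows, which says only that these exact letters are not in them.

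Antigen presentation split by class. Among 22 class I genes 12 were higher and 5 lower (54.5% and 22.7%, beside 30.8% and 29.5% of all genes), with a median of 0.21. B2M, the light chain of class I molecules, was at 1283 and 1279 CPM in vehicle and 1674 and 1432 CPM in combo, a call lost without combo replicate 1 (adjusted p = 0.105). The peptide trimmer ERAP2 rose most of the named members (1.64), while the ER chaperones CANX (-1.18) and PDIA3 (-1.17) fell. B2M was at 2668 and 2252 CPM after TAK-981 alone, and the class I list was lower in combo than in TAK-981 for 16 of its members (72.7%, beside 20.6% of all genes). Class II genes, which present antigen to helper T cells, fell instead. Of 14 tested, 12 were lower and 1 higher (85.7% and 7.14%, beside 29.5% and 30.8% of all genes), with a median of -1.48. HLA-DRA was at 287 and 259.7 CPM in vehicle and 78.2 and 73.5 CPM in combo, the invariant chain CD74 at 1080.5 and 1106 CPM and 389 and 443 CPM, and the class II transactivator CIITA at 56.9 and 57.2 CPM and 22.4 and 24.6 CPM. Their groups did not overlap, but 2 against 2 libraries often separate without any change, so this says nothing particular about these genes. The member that rose was HLA-DOB (0.45), which modulates peptide loading, a call lost without vehicle replicate 2 (adjusted p = 0.065). Reads of the near-identical HLA genes can be assigned to the wrong member, so single members are uncertain. Dex alone gave the class II list a median of -1.38 and TAK-981 alone 0.12.

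Genes of DNA replication and mitosis fell nearly without exception. Of 58 replication genes 57 were lower and 0 higher, and of 58 mitotic genes 58 were lower, against 29.5% of all genes. The medians were -2.3 and -2.49, and 51 and 56 members fell at least 2-fold, which 9.11% of all genes did. RRM2, the regulated subunit of ribonucleotide reductase, was at 489.9 and 487 CPM in vehicle and 37.2 and 42.1 CPM in combo. The helicase subunit MCM4 was at 339 and 321 CPM and 30.8 and 32.3 CPM, and E2F1, the factor that drives such genes, at 67.2 and 73.9 CPM and 5.39 and 5.66 CPM. PCNA, the sliding clamp of the polymerases, fell less, from 187 and 178 CPM to 50.7 and 47.9 CPM. In mitosis, TOP2A, which untangles chromosomes, was at 621 and 555 CPM in vehicle and 86.6 and 85.3 CPM in combo, and the proliferation marker MKI67 at 1289.6 and 1228 CPM and 226 and 272 CPM. CDK1 fell by 3.16, AURKB by 3.11, NCAPG by 3.23 and CCNB1 by 2.24 on the log2 scale. Of the replication genes 57 were lower and 1 higher after TAK-981 alone, and 58 were lower after Dex alone. Of the mitotic genes 58 were lower after TAK-981 alone and 57 after Dex alone. Among all genes 23.7% and 21.5% were lower after TAK-981 and Dex. The list medians for replication were -1.42 (TAK-981) and -0.85 (Dex) and for mitosis -1.18 and -1.01. Combo was lower than TAK-981 for 58 and lower than Dex for 58 of the 58 mitotic genes, where 20.6% and 25.4% of all genes were.

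A sequence of E2F sites, TTTCGCGC or TTTGGCGC on either strand, was in the promoter window of 17 of 48 replication genes (35.4%), of 2 of 49 mitotic genes (4.08%) and of 2.41% of all tested genes with a window. Upstream stretches of DTL (chr1:212035710-212035747, plus strand) and UHRF1 (chr19:4909954-4910021, plus strand, both GRCh38.p14), from among the largest falls, are given with the match in capitals, 8 and 160 bases before the start.
DTL: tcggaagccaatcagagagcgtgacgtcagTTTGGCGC
UHRF1: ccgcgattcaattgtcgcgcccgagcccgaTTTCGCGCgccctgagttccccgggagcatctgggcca

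Around the entry into the cell cycle the picture was mixed. Of 19 G1 regulators 4 were higher and 9 lower (21.1% and 47.4%, beside 30.8% and 29.5% of all genes). CCND2 fell by 1.69 and the phosphatase CDC25A by 3.3, while CCND3, another D-type cyclin, rose from 27.2 and 27.9 CPM to 111 and 116 CPM. CCND3 was at 15.2 and 16.8 CPM after TAK-981 alone and 88.8 and 104 CPM after Dex alone. The CDK inhibitor CDKN1A (p21) fell, from 63.3 and 60.5 CPM to 37.5 and 38.9 CPM, and CDKN1B (p27) was at 289 and 289.7 CPM and 292 and 275 CPM, which did not pass the test (adjusted p = 0.718). RBL2, a pocket protein of resting cells, rose by 0.38. MYC fell modestly, from 354 and 356 CPM to 256 and 279.7 CPM, with a log2 fold change of -0.41 (standard error 0.062, adjusted p = 1.63e-05). It was at 224 and 219 CPM after TAK-981 and 456 and 471 CPM after Dex alone. Of 13 genes of its network 5 were higher and 5 lower (38.5% and 38.5%, beside 30.8% and 29.5% of all genes), which is little more than among all genes in either direction. The antagonist MXD4 rose by 0.67 and MXD3 fell by 1.45.

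Transcripts of lipid synthesis and glycolysis genes were mostly lower. Of 34 genes of sterol and fatty acid synthesis 27 were lower and 1 higher (79.4% and 2.94%, beside 29.5% and 30.8% of all genes), with a median of -1.5. INSIG1, a sterol-sensing anchor that is itself an SREBP target, was at 522 and 512 CPM in vehicle and 63.9 and 63.7 CPM in combo. SQLE fell by 2.38 and FASN by 1.63, while MVD rose by 0.50. The list median was -0.78 after TAK-981 and -1.04 after Dex alone. Of 31 glycolysis and hypoxia genes 26 fell and 2 rose (83.9% and 6.45%, against the same shares of all genes). LDHA, which makes lactate, was at 1079.9 and 915 CPM in vehicle and 151 and 150.5 CPM in combo, and GAPDH at 1712 and 1617 CPM and 627 and 671 CPM. VEGFA fell by 2.22 and HK2 by 1.45. The members that rose were P4HA1, a collagen hydroxylase (181 and 151 CPM to 410.4 and 360.4 CPM), and EGLN3, a sensor of oxygen, whose call was lost in DESeq2 and without vehicle replicate 1 or combo replicate 2 (adjusted p from 0.0711 to 0.117). Respiratory chain genes fell by less, 50 of 61 (82%, beside 29.5% of all genes) with a median of -0.44, among them COX8A (-1.05). Amino acid response genes under ATF4 gave 29 lower and 3 higher of 41 (70.7% and 7.32%, beside 29.5% and 30.8% of all genes). The transporter SLC1A5 fell from 237 and 258 CPM to 65.7 and 70.9 CPM, and DDIT3 (CHOP), a stress factor, rose from 8.65 and 8.66 CPM to 14.7 and 16 CPM.

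Ribosome genes fell in part and by small amounts. Of 66 ribosomal protein genes 31 were lower, 47.0% beside 29.5% of all genes, and 1 was higher, with a median of -0.20. That gene, RPS27, was low at 2.49 and 2.26 CPM in vehicle, and its call was lost without vehicle replicate 2 (adjusted p = 0.0506) or combo replicate 2 (adjusted p = 0.114). Of 45 ribosome biogenesis genes 23 fell (51.1%), nucleolin (NCL) from 597 and 569 CPM to 342 and 363 CPM and fibrillarin (FBL) by 0.96, and 0 rose.

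**Figure D3:**
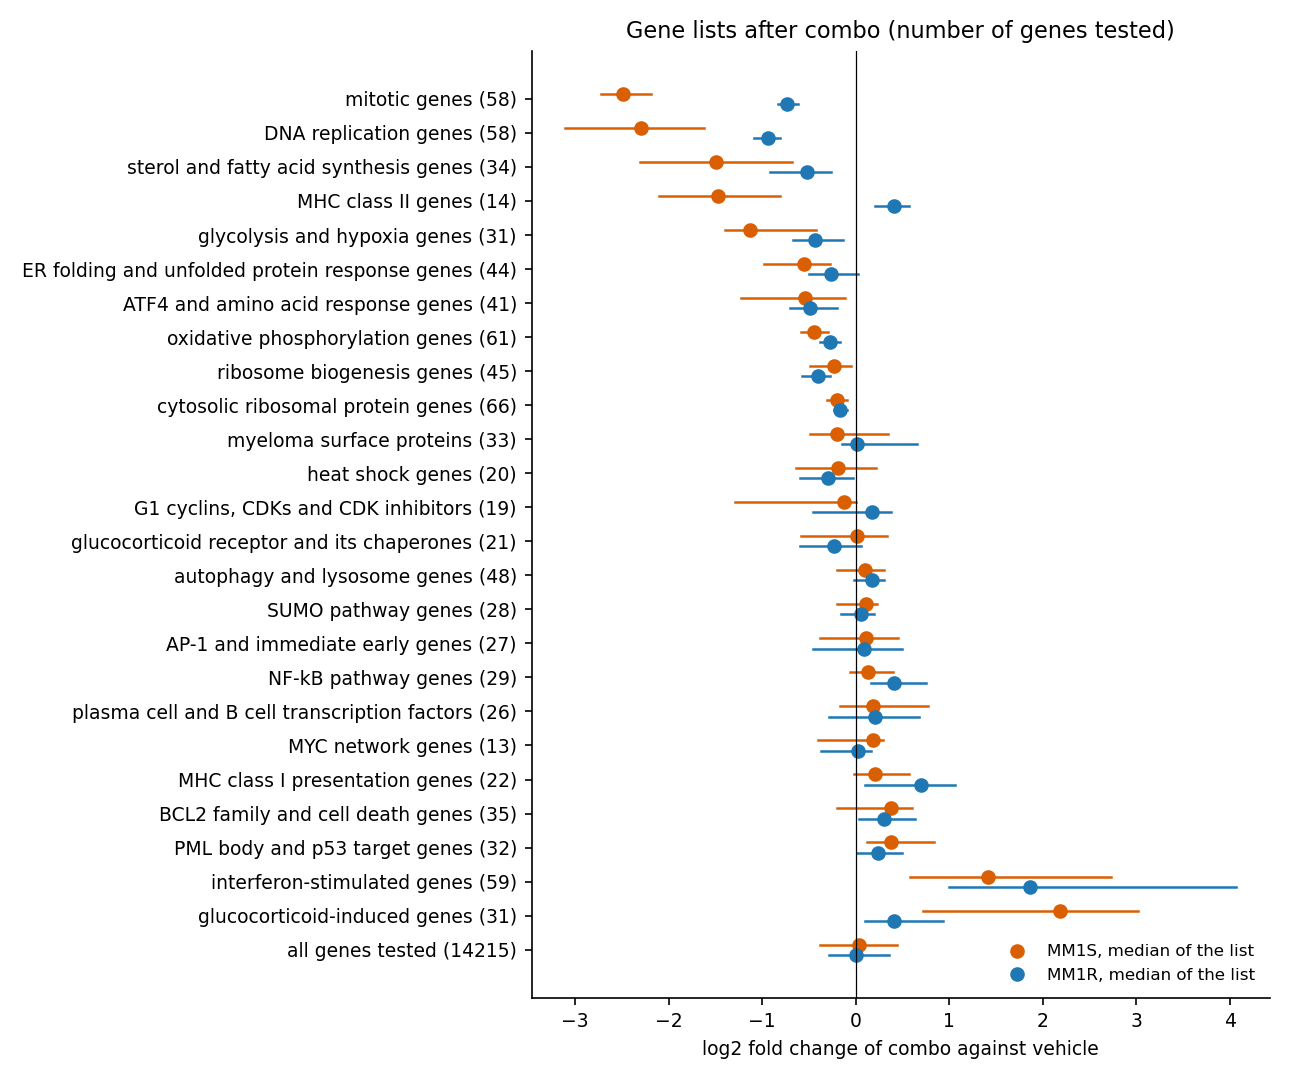
Median (points) and quartiles (lines) of the log2 fold change of combo against vehicle over the tested genes of 25 lists and over all genes, in MM1S (orange) and MM1R (blue), with the number of genes in parentheses. Mitotic and replication genes reach -2.49 and -2.3 in MM1S, and the class II list lies below 0 in MM1S and above 0 in MM1R.

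Plasma cell genes moved in both directions. The 18 tested plasma cell markers summed to 20250.0 to 20560.0 CPM in vehicle and 9548 to 9915 CPM in combo, with IGLL5 the main part of the loss, and 10 of them were lower and 4 higher (55.6% and 22.2%, beside 29.5% and 30.8% of all genes). Of 26 plasma cell and B cell transcription factors 13 were higher and 5 lower (50% and 19.2%, beside 30.8% and 29.5% of all genes). IRF4, a master factor of myeloma survival, was at 1198 and 1254 CPM in vehicle and 514 and 568 CPM in combo. PRDM1 (BLIMP1) was at 727 and 729 CPM and 682 and 727 CPM, and the difference did not pass the test (adjusted p = 0.47). XBP1 fell by 0.32, whereas the transcription factor MAF rose by 0.65 and the germinal centre repressor BCL6 from 2.07 and 1.59 CPM to 13.3 and 16.8 CPM. IKZF3 (Aiolos), a target of lenalidomide, rose by 0.81. IKZF1 (Ikaros) passed with a small rise (0.15, adjusted p = 0.0343), a call that was lost under other scaling, filtering and fits and without single libraries (adjusted p from 0.0523 to 0.329). Genes of protein folding in the endoplasmic reticulum (ER) were mostly lower, with 34 of 44 lower and 7 higher (77.3% and 15.9%, beside 29.5% and 30.8% of all genes). The chaperones HSP90B1 (1669 and 1591 CPM to 605 and 601 CPM) and HSPA5 (513 and 505 CPM to 238 and 257 CPM) fell, while HERPUD1, which serves ER degradation, rose by 0.70.

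Genes for surface proteins that antibodies and cell therapies of myeloma address were 11 higher and 17 lower of 33 (33.3% and 51.5%, beside 30.8% and 29.5% of all genes), so the upward share was near that of all genes. TNFRSF17 (BCMA) was at 259 and 254 CPM in vehicle and 164 and 146 CPM in combo, SLAMF7 at 758 and 755 CPM and 395 and 424 CPM, and GPRC5D at 93.9 and 86.4 CPM and 29.6 and 32.6 CPM. All 3 fell. SDC1 (CD138) rose by 0.34. CD38 was at 17.2 and 14 CPM in vehicle, 6.74 and 7.31 CPM after Dex, 27.2 and 25.3 CPM after TAK-981 and 22.9 and 21.7 CPM after combo, and combo lay above Dex by a log2 difference of 1.66 (standard error 0.11, adjusted p = 4.76e-10). FCRL5 was at 1.32 and 1.54 CPM in vehicle, 3.01 and 1.9 CPM after TAK-981 and 1.66 and 1.26 CPM after Dex, and at 29.9 and 27.1 CPM after combo. Its change in combo exceeded the sum of the single-drug changes by 3.5 (standard error 0.35, adjusted p = 2.66e-06).

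Among genes of apoptosis, 18 of 35 rose and 7 fell (51.4% and 20%, beside 30.8% and 29.5% of all genes), with a median of 0.38, which was 0.23 without vehicle replicate 1. Killers and protectors were on both sides. Of the BH3-only killers, BMF was at 205 and 235 CPM in vehicle and 614 and 669 CPM in combo, and BBC3 (PUMA) at 12.4 and 12.9 CPM and 27.3 and 27.6 CPM. PMAIP1 (NOXA) was at 4.65 and 5.9 CPM and 4.89 and 4.51 CPM, which did not pass the test (adjusted p = 0.428). Of the protectors, BCL2L1 (BCL-XL) fell from 443 and 469 CPM to 252 and 262 CPM, whereas BCL2 and MCL1 rose by 0.46 and 0.42 on the log2 scale. CFLAR, the inhibitor of caspase-8, rose from 258 and 263 CPM to 967 and 949.9 CPM, the largest rise of the list. Cytochrome c (CYCS) fell by 1.06. BCL2L1 was at 569 and 617 CPM after TAK-981 alone, above both vehicle libraries, and at 279 and 312 CPM after Dex alone.

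The SUMO pathway, the target of TAK-981, changed at the mRNA level in 7 genes upward and 8 downward of 28 (25% and 28.6%), beside 30.8% and 29.5% of all genes. The subunits of the activating enzyme fell, SAE1 from 109 and 107 CPM to 44.7 and 45.2 CPM and UBA2 from 181 and 171 CPM to 115 and 99 CPM, and SUMO3 rose by 0.41. SUMO2 did not pass (0.18, adjusted p = 0.08). Its value rested on single libraries, at 0.32 without vehicle replicate 1 (adjusted p = 0.0124), 0.056 without vehicle replicate 2 (adjusted p = 0.646) and 0.12 without combo replicate 1 (adjusted p = 0.374), and it passed with the replicate block (adjusted p = 0.0227). In the p53 and PML list 19 of 32 rose (59.4%, beside 30.8% of all genes), such as MDM2 (1094 and 1126 CPM to 1862 and 1776 CPM) and SP100 (0.93), and 5 fell (15.6%, beside 29.5%), CDKN1A among them.

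The NF-kB list had 11 of 29 higher and 4 lower (37.9% and 13.8%, beside 30.8% and 29.5% of all genes). The AP-1 and immediate early list had 9 and 9 of 27 (33.3% each way), near the shares of all genes. The heat shock list had 6 higher and 10 lower of 20 (30% and 50%), so its upward share was also near that of all genes. The chemokine CCL3 was at 472 and 447 CPM in vehicle and 39.2 and 39.6 CPM in combo, with a log2 fold change of -3.54 (standard error 0.092, adjusted p = 5.56e-16). The inhibitor NFKBIA, which glucocorticoids also induce, rose from 35.1 and 37.9 CPM to 117 and 121 CPM. FOS and FOSL2 fell by 0.60 and 1.85, and the kinase-restraining SPRY1 rose by 0.88. HSPA4L fell from 62.3 and 56.6 CPM to 7.31 and 8.08 CPM. Autophagy and lysosome genes, with 17 higher and 13 lower of 48 (35.4% and 27.1%), were also near the shares of all genes. The cargo receptor SQSTM1 (p62) was at 354 and 371 CPM and 359.5 and 364 CPM, and the difference did not pass (adjusted p = 0.988), while the cathepsin CTSZ rose by 1.52 and the lysosomal galactosidase GLA fell by 1.79. After TAK-981 alone 32 of these 48 genes were higher and 6 lower (66.7% and 12.5%, beside 25.2% and 23.7% of all genes). Combo was lower than TAK-981 in 18 and higher in 3 (37.5% and 6.25%, beside 20.6% and 14.5% of all genes).

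**Figure D4:**
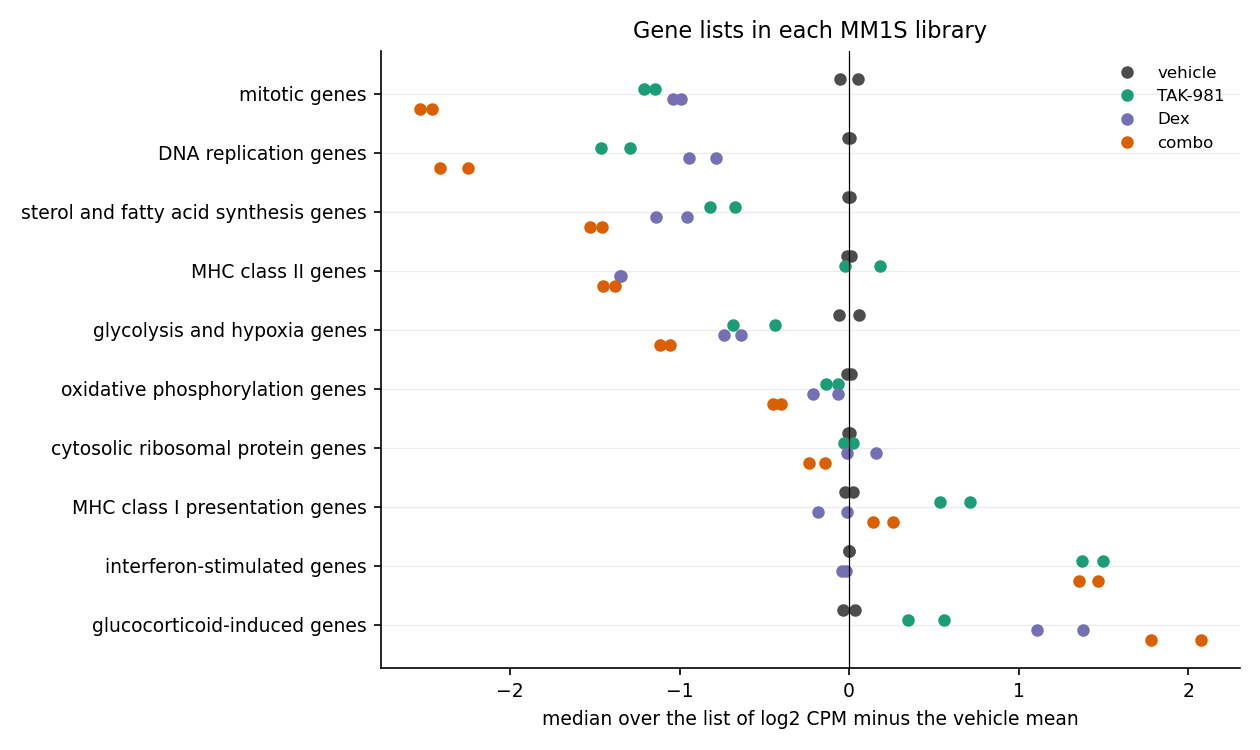
Median over each list of log2 CPM minus the mean of the vehicle libraries, for each of the 8 MM1S libraries (points, coloured by treatment). In both combo libraries the mitotic, replication and sterol lists lie below every single-drug library, the class II list lies beside Dex, and the interferon list beside TAK-981.

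Set against each drug alone, combo differed from TAK-981 in 4990 genes and from Dex in 6765. Combo was higher than TAK-981 in 14.5% of genes and lower in 20.6%, and higher than Dex in 22.2% and lower in 25.4%. Glucocorticoid-induced genes stood above TAK-981 in 23 of 31 and above Dex in 23. Interferon-stimulated genes stood above Dex in 54 of 59. Class II genes were lower than after TAK-981 in 11 of 14 and lower than after Dex in 2. Sterol genes were lower than after TAK-981 in 24 of 34 and lower than after Dex in 26. For single genes the departure from the sum of the single-drug log2 changes went both ways, higher in 5.47% of all genes (777) and lower in 9.48% (1348). It was 1.59 for FKBP5 (adjusted p = 5.71e-09), 1.89 for ZBTB16 (0.00118) and 1.19 for SCD (3.89e-07), whose fall in combo was smaller than that sum. It was -1.4 for CDC45 (adjusted p = 3.92e-05) and -0.90 for FAM111B (2.66e-06), whose falls were larger. For FADS1 and MYB it did not pass the test (0.044, adjusted p = 0.875, and -0.25, adjusted p = 0.51). Over the 31 glucocorticoid-induced genes it was higher for 6 and lower for 9 (19.4% and 29%), with a median of 0.052.

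In MM1R, whose libraries are separate from those of MM1S, combo raised 24.8% of genes and lowered 26.7% (7323 genes). Called in the same direction in both lines were 5328 genes, 62.1% of the MM1S calls and 72.8% of the MM1R calls, and 256 were called in opposite directions. The change itself differed between the lines in 3543 genes, with 9.62% of genes changed upward in MM1S relative to MM1R and 15.3% downward. Of the 8573 genes called in MM1S, 2984 were among these. In 2778 of them the change in MM1S lay further in its own direction than that in MM1R, which can include opposite changes in MM1R. Large falls were mostly of that kind. Of 461 genes at least 4-fold lower in MM1S, 375 were called lower in MM1R too, with a median of -0.861 there beside -2.56 in MM1S, and for 396 the fall was larger in MM1S by the test. At least 4-fold lower in MM1R were 16 genes. Genes were picked here by their size in MM1S, which by itself makes that line look larger.

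NR3C1, the receptor gene, was at 19.9 and 17.9 CPM in vehicle-treated and 19.3 and 20.2 CPM in combo-treated MM1R, beside 283 and 277 CPM in vehicle-treated MM1S. FKBP5 was at 93 and 96.4 CPM in vehicle-treated and 56.8 and 59.1 CPM in combo-treated MM1R, a change of -0.71 beside 5.48 in MM1S, a difference of 6.19 (standard error 0.097, adjusted p = 1.2e-18). CXCR4 was at 40.8 and 45.5 CPM and 48.3 and 48.5 CPM in MM1R, where its change did not pass (adjusted p = 0.0505). SMAP2, PFKFB2 and LRRK1, picked for the smallest p of the difference together with these, rose in MM1S by 3.01, 2.65 and 1.8 and changed in MM1R by 0.27, 0.31 and -0.29. PFKFB2 sets the level of a glycolytic activator, SMAP2 acts in vesicle traffic and LRRK1 is a kinase. In the other direction FAM111B, DTL, SCD and CLSPN fell further in MM1S. SCD was at 786 and 771 CPM in vehicle-treated and 319 and 302 CPM in combo-treated MM1R, and CLSPN, a checkpoint mediator of replication, at 146 and 151 CPM and 80.2 and 81.7 CPM. Both fell in MM1R as well, by 1.33 and 0.88 on the log2 scale.

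By list, the glucocorticoid-induced genes had a median of 0.41 in MM1R and 2.19 in MM1S, and 20 of 31 changed upward relative to MM1R (64.5%, beside 9.62% of all genes). Interferon-stimulated genes rose further in MM1R, with 56 of 59 higher (94.9%, beside 24.8% of all genes) and a median of 1.86. Of the list, 36 lay lower in MM1S by the test of the difference (61%, beside 15.3% of all genes). MX1 rose by 5.1 in MM1R and 3.51 in MM1S, a difference of -1.59 (standard error 0.10, adjusted p = 7.77e-10), whereas DDX60 rose by 4.94 and 4.89 and its difference did not pass (adjusted p = 0.957). Class II genes went opposite ways. In MM1R 8 of 14 were higher (57.1%, beside 24.8% of all genes), and in MM1S 12 were lower (85.7%, beside 29.5%). For 12 the difference passed, with the change lower in MM1S (85.7%, beside 15.3% of all genes). HLA-DRA was at 101 and 97.5 CPM in vehicle-treated and 135 and 133 CPM in combo-treated MM1R. Mitotic genes fell in both lines, 57 of 58 in MM1R (98.3%, beside 26.7% of all genes) with a median of -0.74. All 58 fell further in MM1S by the test of the difference. Replication genes had a median of -0.94 in MM1R and sterol genes -0.52, with 54 and 24 members lower in MM1S by the same test. BCL2L1 fell in MM1S and rose by 0.20 in MM1R, and BCL2L11 rose in MM1S and was at -0.044 in MM1R (adjusted p = 0.534). Ribosome biogenesis genes had a lower median in MM1R (-0.41) than in MM1S (-0.23).

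**Figure D5:**
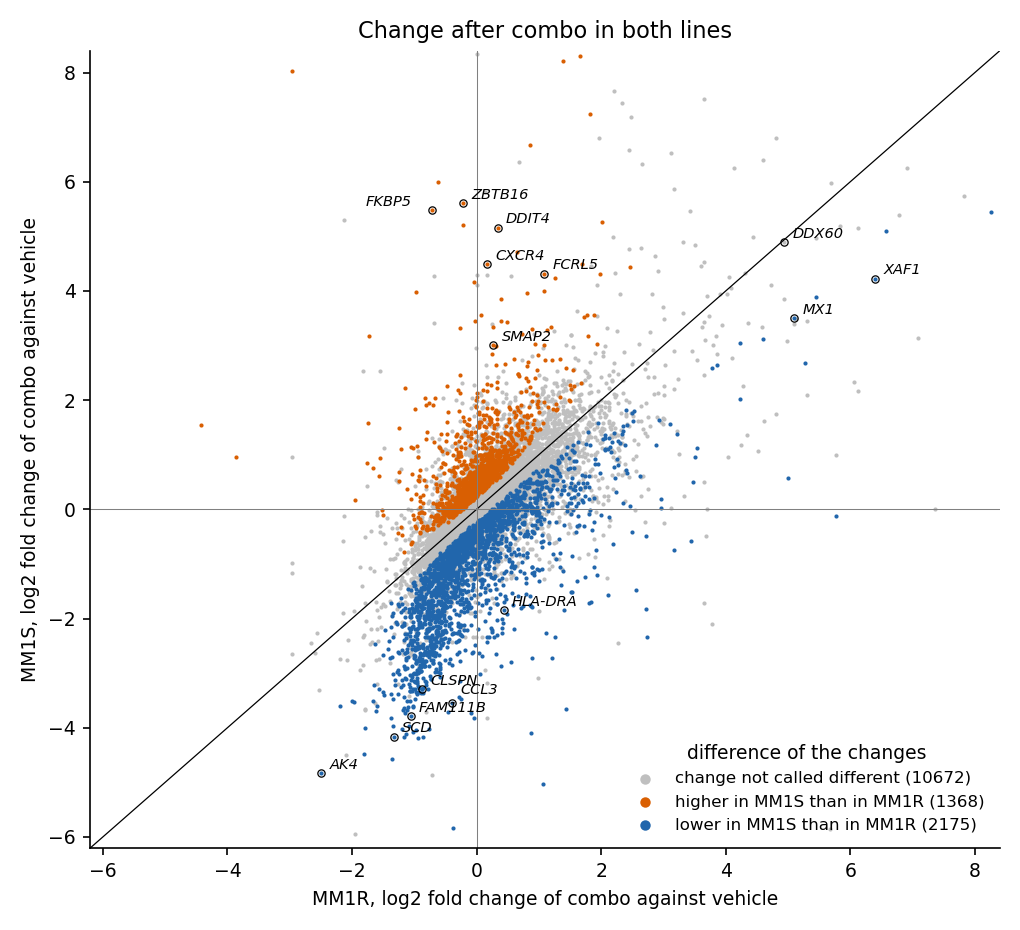
Log2 fold change of combo against vehicle in MM1S (vertical) and MM1R (horizontal) for 14215 tested genes, of which 12 lie outside the axes; orange and blue points are genes whose change was higher (1368) or lower (2175) in MM1S by the test of the difference, and the line marks equal change. FKBP5, ZBTB16, DDIT4 and CXCR4 lie far above the line at -0.71 to 0.34 on the MM1R axis, and SCD, CLSPN and FAM111B lie below it.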

How the data were processed

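RNA-seq of total RNA depleted of ribosomal RNA was available for 16 libraries, grouped by their labels into 8 groups of line and treatment. The authors deposited raw read counts for 23354 genes, named by symbol, without normalization. The submitters' processing notes name STAR 2.6.0, HTSeq 0.6.0, edgeR 3.28.1 and the build hg19. Strand setting and gene annotation are not given in the sources used here, so overlapping and antisense genes cannot be told apart.

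Counts were used as deposited. Genes passing edgeR's filterByExpr (14215) were fitted with 1 term per group over all 16 libraries, which share 1 estimate of the spread, with TMM scaling and the robust quasi-likelihood F test (R 4.3.3, edgeR 4.0.16). The threshold was a Benjamini-Hochberg adjusted p under 0.05 over all genes tested. Within a comparison of 2 against 2 libraries an exact permutation test cannot go below p = 0.333, so none was used. A gene at or below 3 counts in both libraries of a group was treated as at the floor there, and bounds cover counting error only. Combo against vehicle, against TAK-981 and against Dex share libraries, as do all comparisons with vehicle, so their values stand side by side without overlaps. The departure from additivity is combo minus TAK-981 minus Dex plus vehicle on the log2 scale.

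Named genes are the 10 largest rises and falls with a mean log2 CPM of at least 3, the 5 largest gains and losses in CPM, the 5 highest among genes at the floor in either group, marked genes of each list with the 2 genes of smallest p per direction, and the 5 smallest p per direction for the difference between the lines. Some genes that the rule names are not reported here. Members and lists were chosen with earlier results of these data known. Promoter sequences are from RefSeq (GRCh38.p14) and were matched by symbol, and coordinates of genes are those of the deposited table.

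Alternatives were scaling by RLE or by library size alone, all genes without the low-count filter, DESeq2 1.42.0, smaller fits, a replicate block, a 2-fold threshold and leaving out each library. On simulated counts of 13885 genes for combo against vehicle in MM1S, the test called 88% of 100 genes changed 1.5-fold, 100% of 100 changed 2-fold and 10 unchanged genes. Only these 200 genes, above a minimum level, were changed, and counts followed the fitted trend of the spread. Far more genes were called in the data, so these rates need not hold there.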

Additional observations from a re-analysis of the deposited data

Results flagged for a closer look

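The change after combo differed between MM1S and MM1R in 3543 genes by the interaction test of edgeR. Of the genes with the smallest p for that difference, FKBP5 stood 6.19 higher on the log2 scale in MM1S than in MM1R, CXCR4 4.33, SMAP2 2.74, PFKFB2 2.33 and LRRK1 2.09. In the other direction the change in MM1S minus that in MM1R was -2.73 for FAM111B, -2.89 for DTL, -2.84 for SCD and -2.41 for CLSPN. The receptor gene NR3C1 was at 283 and 277 CPM in vehicle-treated MM1S and 19.9 and 17.9 CPM in vehicle-treated MM1R, and its part in these differences was not tested.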

How the results depend on the processing

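With scaling by RLE or by library size alone, without the low-count filter, in DESeq2, fits of fewer libraries and the replicate block, the counts of called genes stayed within 1.5 times those reported. A 2-fold minimum cut them to 2509 for combo against vehicle in MM1S, 1270 in MM1R, 1099 for the difference between the lines, 980 against TAK-981 and 1400 against Dex. Leaving out 1 library at a time gave 7309 to 7525 calls for combo against vehicle in MM1S, 5551 to 5935 in MM1R, 2580 to 2971 for the difference, 3662 to 5309 against TAK-981 and 5038 to 6635 against Dex.

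With the replicate number as a block there were 9282, 8237, 4720, 6059 and 7699 calls in the same order. Same-numbered vehicle and combo libraries did not deviate together (correlations of 0.0162 and 0.000991), so the numbers were not taken to pair the samples.

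Signs turned for 7 named genes, none of them past the threshold as reported. NR3C1 went to -0.00366 with RLE scaling, -0.00686 in the 4 libraries alone and -0.00751 in DESeq2, and without 1 library ranged from -0.0127 to 0.0311. SQSTM1 was at 0.00025 in the 8 MM1S libraries, and without 1 library at -0.0375 to 0.0312. Without 1 library EGR1 ranged from -0.104 to 0.626, PMAIP1 from -0.331 to 0.0109, TNFAIP3 from -0.141 to 0.00499, CDKN1B from -0.076 to 0.014 and HSPA1A from -0.184 to 0.48. The cause was not tested. Medians of 4 lists, AP-1, the receptor with its chaperones, stromal and T and NK cell markers, changed sign under some alternative. Low genes rest on few counts, where small changes were not detectable.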
